A study of Mus musculus with 26 samples.

Results

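The genes described here are 35 genes for the transport of proteins into and along cilia and sperm tails, in adult mouse testes. They were selected by symbol from the deposited table of 51124 genes and fall into 4 classes: 11 subunits of intraflagellar transport complex B (IFT-B), 6 subunits of complex A (IFT-A), 10 genes of the BBSome and its partners, and 8 genes of the manchette and of sperm tail formation. All 35 are protein coding, each is listed once, and all passed the filter on low values.

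RNA of whole testes from adult mice was sequenced after removal of ribosomal RNA, in 3 genotypes with 2 libraries each, and every library came from a different mouse. N1 and N2 were wild-type (WT). N3 and N4 were *10xPerf*, a line with 10 sites perfectly complementary to piR-A, an abundant pachytene piRNA, knocked into the 3′UTR of *Ythdc2*. N5 and N6 were *10xBulge*, a line in which the 10 sites at the same place are mismatched to piRNA nucleotides 10 and 11. The knock-ins were made with CRISPR/Cas9 in the B6D2F1/J hybrid background and studied as homozygotes. The labels give no littermate relation between WT and knock-in mice, so line and background cannot be told apart from the inserted sites. Whole testes were used, so RNA of somatic and germ cells was read together.

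Intraflagellar transport moves cargo along the microtubules of a growing cilium or sperm tail. IFT-B is carried outward by kinesin-2, IFT-A is needed for the return with dynein-2 and for entry of membrane proteins, and the BBSome links membrane proteins to these trains. The manchette is a transient skirt of microtubules around the nucleus of the elongating spermatid, along which proteins travel to the forming tail while the head is shaped.

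Many genes of cilia carry an X-box, the site of RFX transcription factors, near their start. The selection did not use sequence, so the promoters of the members were searched for the X-box letters, GTNNCC and GNAAC with any 3 bases between them, and for the cAMP response element (CRE) letters TGACGTCA, on both strands. RefSeq promoters on GRCm38.p6, windows of 300 bases around the start, matched 31 of the 35 members. *Rimbp3*, *Ift80*, *Ift81* and *Ift122* did not match. The X-box letters were found in 7 of the 31 (22.6%), against 673 of 27025 genes with such a window (2.49%). The CRE letters were found in 2 of the 31 (6.45%), against 2.03% of all genes, and both of these members also held an X-box. The stretches below, read on the strand of each gene, hold the X-box of the 5 members in which it lies before the start, with the 14 letters of the match in capitals.

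Spag16: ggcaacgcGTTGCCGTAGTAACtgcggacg
Bbs7: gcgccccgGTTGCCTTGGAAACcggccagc
Ift22, upstream match: ctgtcaggGTTTCCTGGGCTACtgcgcagc
Ift22, downstream match: tgttcccgGTCGCCGTGGAAACtgaccagc
Lrguk: tgacgtcaGTCTCCTAGGCAACgcgtataa
Ift57: cgggtctgGTTGCCGTGGTGACcggctgcc

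These lie at chr1:69826859-69826888 (plus strand) for *Spag16*, chr3:36613489-36613518 (minus strand) for *Bbs7*, chr5:136908079-136908108 and chr5:136908109-136908138 (plus strand) for *Ift22*, chr6:34029422-34029451 (plus strand) for *Lrguk* and chr16:49699199-49699228 (plus strand) for *Ift57*. The upstream match of *Ift22* and the match of *Ift57* read as the motif on the opposite strand, and that of *Bbs7* reads as the motif on both strands. Counting the base before the start as -1, the match began at -103 in *Spag16*, -121 in *Bbs7*, -63 and -33 in *Ift22*, -18 in *Lrguk* and -87 in *Ift57*. In *Lrguk* the CRE letters directly precede the X-box, as the lower-case letters before the capitals show, and in *Ift57* they lie further upstream, from -162 to -155. In *Bbs4* and *Bbs1* the match lies just after the start. A match shows that the letters are there, and the binding of a factor was not measured.

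The values are normalized read counts, which the authors computed with DESeq2 from their salmon estimates. They were fitted by limma as log2(value + 1) over the 23782 genes that reached 10 in 2 or more libraries, and a gene was called at a Benjamini-Hochberg adjusted p under 0.1. The sums per library were 39754103 to 59804251 normalized counts, from roughly 41.1 to 61.6 M reads, so that 3 reads correspond to at most 3.63 normalized counts, far below the lowest value of any member. The first principal component, with 72.7% of the variance over genes, separated both *10xBulge* libraries from the rest. N1 stood apart in its *Rn18s* ribosomal RNA, 4.02% of its sum against 0.0449% to 0.41% in the others. *Ythdc2* itself was at 827 and 2412 in WT, 1334 and 1136 in *10xPerf* and 1202 and 2458 in *10xBulge*, which overlap.

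In WT testes the members spanned a wide range of levels. Per kilobase of the longest annotated coding transcript, *Meig1*, a small manchette protein, was the highest with 40973 and 44048 normalized counts per kb in N1 and N2. *Rimbp3*, a binding partner of Hook1 on the manchette, had 6403 and 6020 per kb, *Ift140*, an IFT-A core subunit, 4518 and 6024, and *Ift172*, the largest IFT-B subunit, 4866 and 5455. The values of *Ift140* overlapped with those of both others. *Bbs12*, a chaperonin-like factor for BBSome assembly, was the lowest, at 28.0 and 99.3 per kb. *Meig1* carried 80.5% and 79.9% of the summed level per kb of its class in WT.

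**Figure D1:**
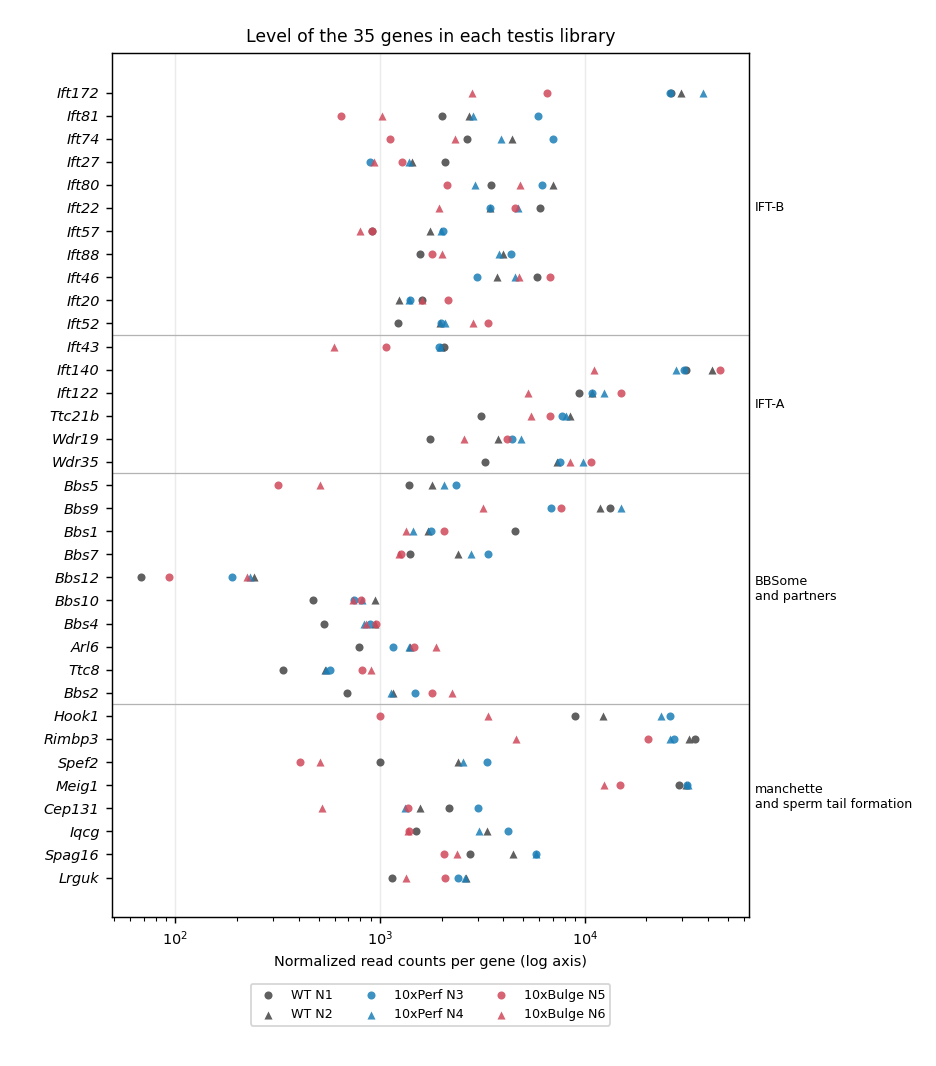
Normalized read counts (log axis) of the 35 genes in each of the 6 libraries, grouped by class and ordered within a class by the log2 fold change in *10xBulge* against WT. Both *10xBulge* points lie left of all others for *Ift172*, *Ift81*, *Ift74*, *Ift43*, *Bbs5*, *Bbs7*, *Hook1*, *Rimbp3*, *Spef2*, *Meig1*, *Iqcg* and *Spag16*, and right of all others for *Ift20*, *Ift52*, *Arl6*, *Bbs2* and *Ttc8*.

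The comparison of *10xBulge* with WT asks how the mismatched sites go with the testis transcriptome. Of the 35 genes, 8 fell and 3 rose. The calls are 31.4% of the members, against 34.4% of all genes tested, with 8.57% higher against 11.4% of all genes and 22.9% lower against 23%, so the share is near the background. The members' log2 fold changes ranged from -2.70 to 1.16, with a median of -0.61 against -0.03 over all genes. In 15 members both *10xBulge* libraries lay below both WT libraries (42.9%, against 33.2% of all genes), and in 6 above (17.1%, against 28.9%). At an unadjusted p under 0.05 there were 12 members, against 38.5% of all genes. With libraries scaled to equal totals, the median of all genes moved from -0.03 to 0.36 and that of the members from -0.61 to -0.23. Such scaling shifts every gene by nearly the same amount, so the members had to stay 0.58 below all genes. The unchanged gap is thus not a check on the members' lower median. Over all genes that scaling gave more higher and fewer lower calls. Among the members the calls then split into 6 higher and 6 lower, which by itself does not set them apart. The lower calls numbered 4 without N1 and 4 without N2, and the members' median was -0.90 without N1 and -0.12 without N2. The higher calls numbered 0 without N1, N3, N4 or N6 and 1 without N5.

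**Figure D2:**
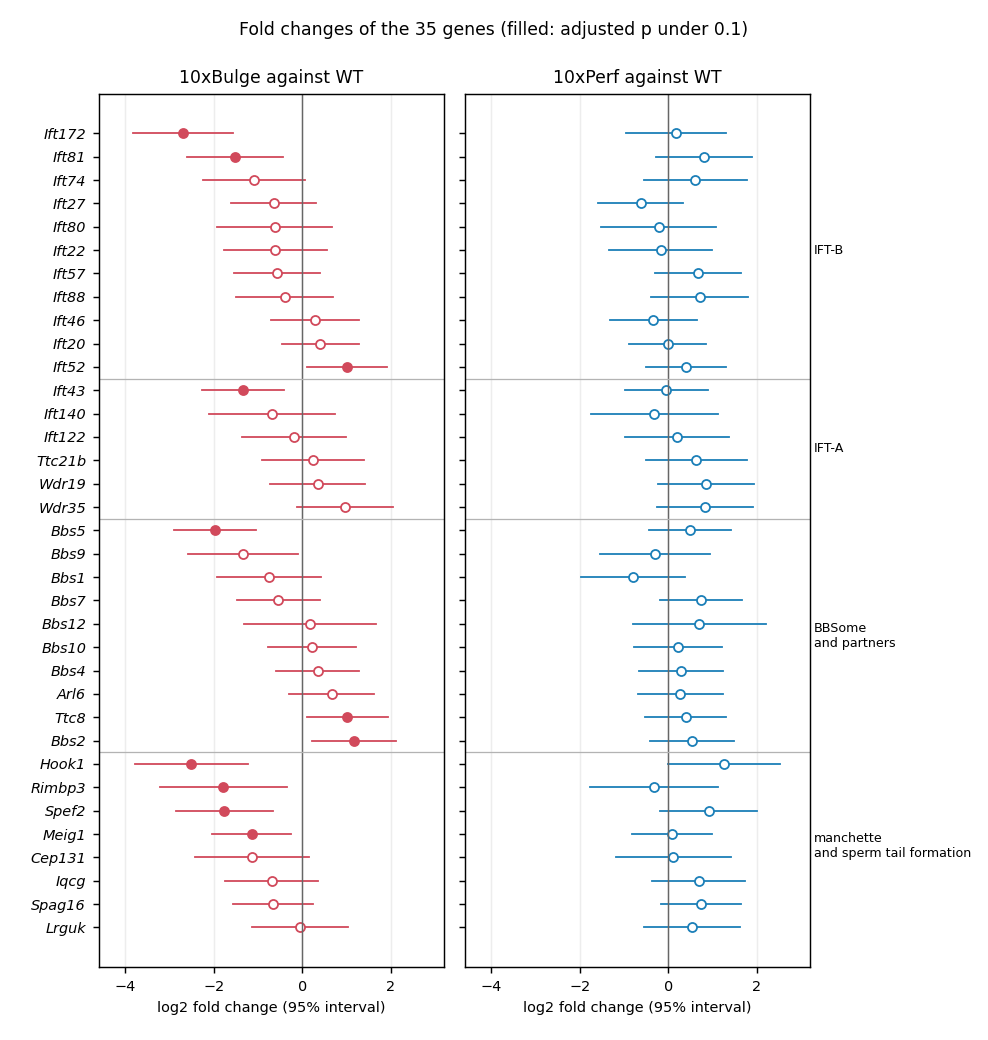
Log2 fold change of each of the 35 genes with its 95% interval from limma, in *10xBulge* against WT (left) and *10xPerf* against WT (right), with filled points for an adjusted p under 0.1. The left panel has 11 filled points, from -2.70 for *Ift172* to 1.16 for *Bbs2*, and the right panel has none.

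Of the 11 IFT-B genes, 2 fell and 1 rose in *10xBulge* (18.2% lower, against 23% of all genes, and 9.09% higher, against 11.4%). *Ift172*, at chr5:31253277-31291116 on the minus strand (GRCm38), had 26293 and 29471 normalized counts in WT, 25939 and 37721 in *10xPerf*, and 6556 and 2815 in *10xBulge*. Both *10xBulge* values were far under the other 4. The fall was 6.48-fold (log2 fold change -2.70 ± 0.50 SE, adjusted p = 0.0034 in limma), and the call held in all 18 alternatives. *Ift81*, which pairs with Ift74 to bind tubulin, had 1998 and 2732 in WT, 5900 and 2835 in *10xPerf*, and 640 and 1023 in *10xBulge*. The groups did not overlap, and the log2 fold change was -1.53 ± 0.48 SE (adjusted p = 0.0445 in limma). That call ended without N1 (adjusted p = 0.116), N2 (0.18) or N5 (0.147), and with the libraries scaled to equal totals (0.136). *Ift52*, an IFT-B core subunit, had 1218 and 1962 in WT, 1993 and 2078 in *10xPerf*, and 3371 and 2833 in *10xBulge*. The *10xBulge* values were above all others, with a log2 fold change of 1.00 ± 0.40 SE (adjusted p = 0.0994 in limma), a call just inside the threshold that ended when any of N1, N3, N4, N5 or N6 was left out (adjusted p from 0.116 to 0.348).

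*Ift46*, another core subunit, and *Ift20*, which also resides at the Golgi, differed least in this class. *Ift46* had 5834 and 3719 in WT, 2967 and 4543 in *10xPerf*, and 6760 and 4776 in *10xBulge* (log2 fold change against WT 0.29, 95% interval -0.70 to 1.27). *Ift20* had 1595 and 1239 in WT, 1397 and 1381 in *10xPerf*, and 2152 and 1600 in *10xBulge* (0.40, interval -0.47 to 1.27). Both intervals include a change of 2-fold. The other IFT-B genes were not called, with log2 fold changes of -1.09 for *Ift74*, -0.65 for the small GTPase *Ift27*, -0.63 for *Ift80*, -0.61 for *Ift22*, -0.57 for *Ift57* and -0.40 for *Ift88*. The class median was -0.61, and -1.04 without N1 and -0.12 without N2. Within the class the proportions differed: *Ift172* was 30.7% and 31.1% of the summed level per kb in WT, 25.8% and 37.5% in *10xPerf*, and 10.9% and 5.51% in *10xBulge*. *Ift52* was 3.42% and 4.98% in WT, 4.77% and 4.97% in *10xPerf*, and 13.4% and 13.3% in *10xBulge*. The shares of a class depend on each other, so the fall of *Ift172* by itself raises the share of *Ift52*. These shares are given without a test, since an exact permutation test of 2 libraries against 2 cannot go below p = 0.33.

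Of the 6 IFT-A genes, 1 fell (16.7%, against 23% of all genes) and 0 rose (against 11.4%). *Ift43*, the smallest subunit, had 2061 and 1978 in WT, 1947 and 1964 in *10xPerf*, and 1067 and 597 in *10xBulge*. The WT and *10xPerf* values lay close together, with both *10xBulge* values under them (log2 fold change -1.34 ± 0.41 SE, adjusted p = 0.0421 in limma). This call ended without N1 (adjusted p = 0.153), N2 (0.109) or N6 (0.167). *Ift122*, a core subunit, had 9388 and 10880 in WT, 10899 and 12381 in *10xPerf*, and 14957 and 5275 in *10xBulge*. *Ttc21b*, which encodes IFT139, had 3110 and 8474 in WT, 7757 and 8112 in *10xPerf*, and 6749 and 5441 in *10xBulge*. Neither was called, with log2 fold changes of -0.19 for *Ift122* (interval -1.36 to 0.99) and 0.24 for *Ttc21b* (interval -0.90 to 1.38), and the *10xBulge* libraries fell on both sides of WT in *Ift122*. *Ift140* had 31367 and 41818 in WT, 30380 and 27845 in *10xPerf*, and 45687 and 11045 in *10xBulge*, so that N5 held the highest and N6 the lowest value of the 6 libraries (-0.69, interval -2.12 to 0.74). *Wdr35* (0.96) and *Wdr19* (0.35), the genes of IFT121 and IFT144, were not called either. The class median was 0.03, and its sign depended on the library left out: it was -0.39 without N1, 0.41 without N2, -0.47 without N5 and 0.48 without N6.

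Of the 10 genes of the BBSome and its partners, 1 fell and 2 rose. These are 10% lower, against 23% of all genes, and 20% higher, against 11.4%. *Bbs5*, a BBSome subunit that binds phosphoinositides, at chr2:69647171-69667571 on the plus strand (GRCm38), had 1377 and 1797 in WT, 2345 and 2043 in *10xPerf*, and 318 and 507 in *10xBulge*. No *10xBulge* value came near the others. The fall was 3.91-fold (log2 fold change -1.97 ± 0.41 SE, adjusted p = 0.00685 in limma), and the call held in all 18 alternatives. *Bbs2*, a core subunit, had 691 and 1158 in WT, 1484 and 1134 in *10xPerf*, and 1790 and 2242 in *10xBulge*. *Ttc8*, which encodes BBS8, had 336 and 538 in WT, 570 and 542 in *10xPerf*, and 818 and 905 in *10xBulge*. In both, *10xBulge* was above every other library, by log2 fold changes of 1.16 ± 0.42 SE for *Bbs2* (adjusted p = 0.0726) and 1.02 ± 0.41 SE for *Ttc8* (adjusted p = 0.0982, both in limma). The *Bbs2* call ended without N1, N3, N4 or N6 (adjusted p from 0.125 to 0.299), and the *Ttc8* call without N1, N3, N4, N5 or N6 (0.149 to 0.356).

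*Bbs10* and *Bbs12*, the chaperonin-like assembly factors, differed least in this class. *Bbs10* had 472 and 940 in WT, 741 and 813 in *10xPerf*, and 807 and 737 in *10xBulge* (log2 fold change 0.21, interval -0.78 to 1.20). *Bbs12* had 68.1 and 242 in WT, 188 and 232 in *10xPerf*, and 93.0 and 224 in *10xBulge* (0.17, interval -1.33 to 1.66). In both, the WT libraries lay further apart than the *10xBulge* ones on the log2 scale. *Bbs9*, a scaffold subunit of the BBSome, had 13249 and 11797 in WT, 6805 and 15075 in *10xPerf*, and 7669 and 3170 in *10xBulge* and missed the threshold (-1.34 ± 0.55 SE, adjusted p = 0.105 in limma). The other members of the class were not called, with values of -0.75 for *Bbs1*, -0.54 for *Bbs7*, 0.34 for *Bbs4* and 0.66 for *Arl6*, the small GTPase that recruits the BBSome to membranes. The class median was 0.19, and -0.18 without N1 and 0.73 without N2.

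Of the 8 genes of the manchette and of sperm tail formation, 4 fell (50%, against 23% of all genes) and 0 rose. In 7 both *10xBulge* libraries were under both WT libraries (87.5%, against 33.2% of all genes). *Hook1*, which links cargo to manchette microtubules and is mutated in azh mice with abnormal sperm heads, lies at chr4:95967240-96025413 on the plus strand (GRCm38). It had 8928 and 12203 in WT, 26140 and 23690 in *10xPerf*, and 1001 and 3347 in *10xBulge*. The genotypes did not overlap, with *10xPerf* the highest. The fall in *10xBulge* against WT was 5.70-fold (log2 fold change -2.51 ± 0.56 SE, adjusted p = 0.0102 in limma), and the call held in all 18 alternatives. *Spef2*, of the central pair of the sperm tail, had 999 and 2398 in WT, 3336 and 2541 in *10xPerf*, and 407 and 511 in *10xBulge*. The *10xBulge* values were close together and under all others (-1.76 ± 0.48 SE, adjusted p = 0.0263 in limma), and the call ended without N2 (adjusted p = 0.13).

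*Rimbp3* had 34446 and 32387 in WT, 27258 and 26181 in *10xPerf*, and 20379 and 4593 in *10xBulge*. Both *10xBulge* values were the lowest, but they differed 4.44-fold from each other. The log2 fold change was -1.79 ± 0.64 SE (adjusted p = 0.0697 in limma), and was -0.71 without N6, and the call ended when any of N1, N2, N3, N4 or N6 was left out (adjusted p from 0.144 to 0.253). *Meig1*, which helps to bring Spag16 to the manchette, had 28927 and 31098 in WT, 31521 and 32084 in *10xPerf*, and 14799 and 12348 in *10xBulge*. The libraries varied little within each genotype, with a log2 fold change of -1.15 ± 0.40 SE (adjusted p = 0.0639 in limma), and the call ended when any of the same libraries was left out (0.104 to 0.155) or with equal totals (0.102). *Lrguk*, needed for head shaping and tail growth, had 1142 and 2631 in WT, 2412 and 2601 in *10xPerf*, and 2086 and 1340 in *10xBulge* (-0.05, interval -1.14 to 1.04). *Spag16*, of the central apparatus, had 2758 and 4439 in WT, 5805 and 5773 in *10xPerf*, and 2054 and 2384 in *10xBulge* (-0.66, interval -1.57 to 0.24). *Lrguk* overlapped with WT and *Spag16* lay below it, and neither was called. *Cep131*, of centriolar satellites, and *Iqcg*, a calmodulin-binding protein of the axoneme, were not called either (-1.13 and -0.70). The class median was -1.14, and -1.44 without N5 and -0.74 without N6.

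Of the 9 members called in *10xBulge* against WT that had a promoter window, 0 held the X-box letters, and of the 22 not called 7 did. The share has no test, and these calls depend on the libraries as stated for each gene. Besides leaving out a library, a fit of the 4 libraries of WT and *10xBulge* alone ended the calls of *Ift52*, *Bbs2*, *Ttc8*, *Rimbp3* and *Meig1* (adjusted p from 0.121 to 0.161 in limma), and limma without its mean-variance trend ended those of *Ift52*, *Bbs2*, *Ttc8* and *Rimbp3* (0.103 to 0.144). Without the filter on low values *Ift52*, *Ttc8*, *Rimbp3* and *Meig1* were not called (0.11 to 0.118), and with 10 required in every library *Ift52* and *Ttc8* were not (0.111 and 0.118).

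**Figure D3:**
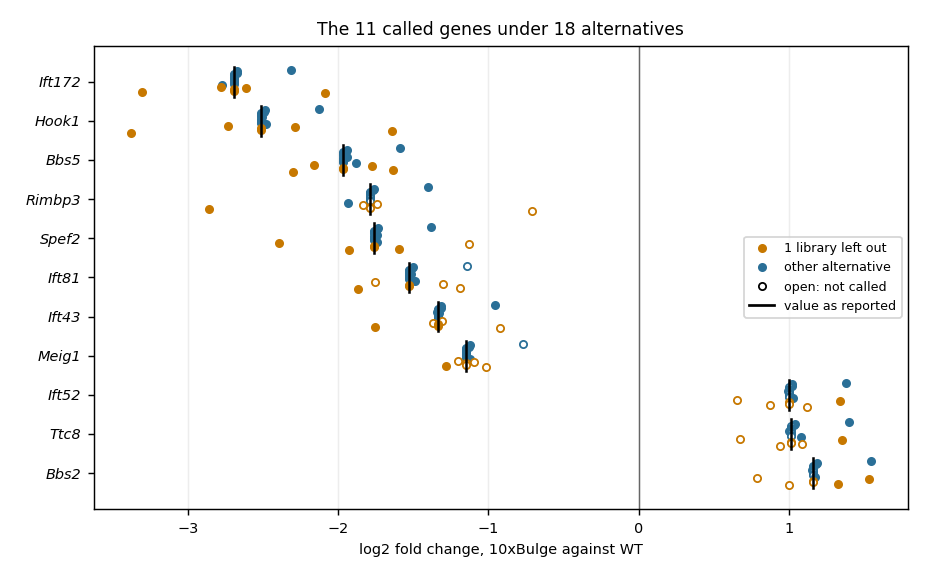
Log2 fold change in *10xBulge* against WT of the 11 called genes under 18 alternatives, 6 of which leave out 1 library, with filled points where the gene was still called and a black bar for the value as reported. *Ift172*, *Hook1* and *Bbs5* are filled throughout, and no point crosses 0.

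The other genes of these pathways, 31 of them listed from general knowledge, had 11 lower and 0 higher calls in *10xBulge* against WT (35.5% lower, against 23% of all genes, and 0% higher, against 11.4%). Without N2 the lower calls numbered 6, and with equal library totals 9 were lower and 4 higher (3 higher and 11 lower with equal upper quartiles). Equal library totals also gave more higher and fewer lower calls over all genes. Among 9 other manchette genes 8 fell (88.9%, against 23% of all genes), with a median of -1.57. *Spag4*, a protein of the nuclear envelope of spermatids, had 16101 and 8040 in WT, 8014 and 10356 in *10xPerf*, and 210 and 164 in *10xBulge* (-5.93 ± 0.45 SE, adjusted p = 1.63e-05 in limma). *Sun3*, which links the nuclear envelope to the manchette, had 1398 and 2183 in WT, 2486 and 2020 in *10xPerf*, and 230 and 268 in *10xBulge* (-2.81 ± 0.40 SE, adjusted p = 0.000748 in limma). The fall of *Spag4* was larger than that of any member. Of the 9 motor genes 3 fell (33.3%, against 23% of all genes). *Kif17*, a kinesin-2 motor, had 29152 and 15951 in WT, 16590 and 17840 in *10xPerf*, and 587 and 194 in *10xBulge* (-5.99 ± 0.56 SE, adjusted p = 5.15e-05 in limma). *Dync2i1*, a dynein-2 intermediate chain, had 1884 and 2178 in WT, 5089 and 3352 in *10xPerf*, and 477 and 896 in *10xBulge* (-1.63 ± 0.45 SE, adjusted p = 0.0259 in limma). That call ended without N1 (adjusted p = 0.1), N2 (0.108) or N5 (0.11). The third motor gene called was *Kifap3* (-1.15), the adaptor of kinesin-2, while *Kif3a* (-0.35) and *Kif3b* (-0.07), its motor subunits, were not called. Of the 9 other IFT genes and of the 4 other BBS genes 0 were called, against 34.4% of all genes. In each list 1 had an unadjusted p under 0.05.

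**Figure D4:**
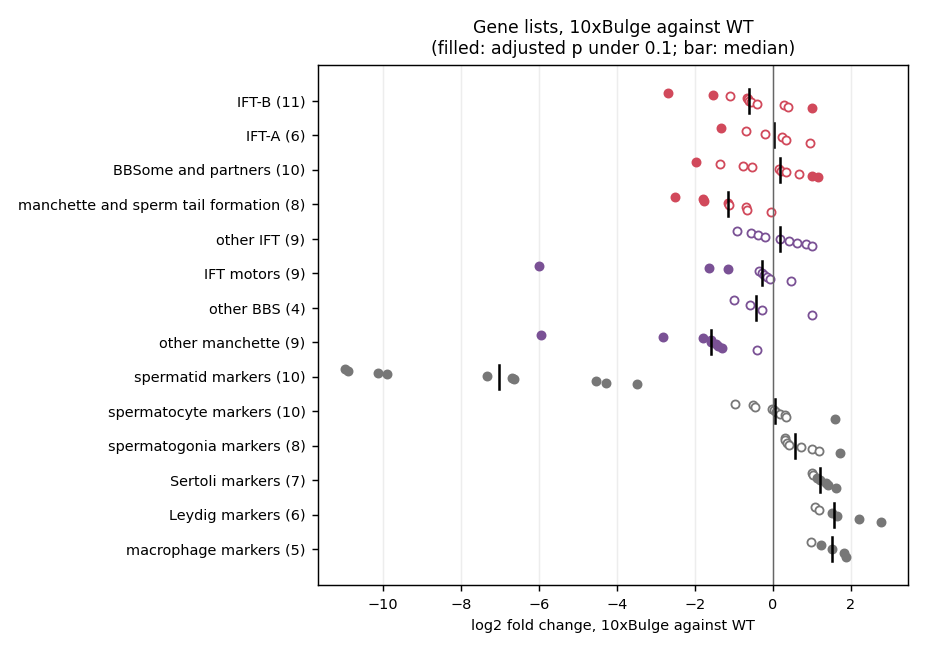
Log2 fold change in *10xBulge* against WT for the 4 classes of members (red), 4 lists of other genes of the pathways (purple) and lists of cell type markers (grey), with the number of genes tested, filled points for an adjusted p under 0.1 and a bar for the median. The spermatid markers lie between -10.97 and -3.48, the members between -2.70 and 1.16.

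Cell type markers moved in *10xBulge*, and their part in the members' changes was not tested. In *10xPerf* against WT 0 markers were called in any list, against 0.959% of all genes. The spermatid sums of *10xPerf* were 592962 and 653889, within those of WT. In bulk RNA, fewer cells of a type and less RNA per cell cannot be told apart. All 10 spermatid markers fell in *10xBulge* (against 23% of all genes), by log2 fold changes from -10.97 to -3.48 (median -7.01). Their summed level was 489511 to 682191 in WT and 1067 to 1775 in *10xBulge*. Among the 10 spermatocyte markers 0 fell and 1 rose (10% higher, near the 11.4% of all genes). Their median was 0.05, with sums of 57571 to 73980 in WT and 66639 to 75863 in *10xBulge*. Of the 8 spermatogonia markers 1 rose (12.5%, also near 11.4%). Their median was 0.58, with sums of 7787 to 10241 in WT and 13864 to 17642 in *10xBulge*. The marker called was *Kit*, at 1652 and 1473 in WT and 5556 and 4738 in *10xBulge* (log2 fold change 1.72). The other 7 were above 0 but not called, from 0.30 for *Sohlh1* to 1.18 for *Stra8*. Higher calls were found for 5 of 7 Sertoli cell markers (median 1.22), 4 of 6 Leydig cell markers (1.58) and 4 of 5 macrophage markers (1.53). These are 71.4%, 66.7% and 80%, against 11.4% of all genes. The sums of the Sertoli markers were 61126 to 62283 in WT and 101091 to 232100 in *10xBulge*, those of the Leydig markers 50112 to 70960 and 137284 to 285572, and those of the macrophage markers 2090 to 2907 and 5704 to 9684. Single genes made up much of the Sertoli and Leydig sums. *Clu* was at 48083 and 46738 in WT and 196126 and 75652 in *10xBulge*. *Insl3* was at 23936 and 42337 in WT and 130172 and 76580 in *10xBulge*. No defining marker of these lists was at 0 in any library. A list for the ciliated cells of the efferent ducts, which can be attached to a testis, had 5 genes. Of these *Mcidas* did not pass the filter (at most 8.18 in any library). Of the 4 tested 2, *Foxj1* and *Deup1*, fell (50%, against 23% of all genes). The list's sum was 11984 to 12737 in WT and 993 to 1759 in *10xBulge*. Most of it in WT came from *Foxj1* (8557 and 6131) and *Deup1* (3618 and 5453). *Ccno* (log2 fold change -0.32) and *Krt8* (-0.34) were not called. Whether ciliated duct cells were in any of the samples was not tested.

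The comparison of *10xPerf* with WT asks the same of perfectly matched sites. Among the members 0 were called, against 0.959% of all genes (0.467% higher and 0.492% lower), and 0 had an unadjusted p under 0.05 in limma, against 6.09% of all genes. The smallest adjusted p was 0.832, for *Hook1*, in which both *10xPerf* libraries were above WT (log2 fold change 1.25, interval -0.02 to 2.52). The log2 fold changes ranged from -0.80 for *Bbs1* to 1.25, and 25 of the 35 were above 0. The median was 0.39, against 0.02 over all genes, and it was 0.05 without N1 and 0.72 without N2. Both *10xPerf* libraries lay above both WT libraries in 13 members (37.1%, against 20.2% of all genes) and below them in 4 (11.4%, against 19.8%). In 3 of the 35 members the 95% interval lay within a change of 2-fold either way, and for the rest it reached a change of that size. The class medians were 0.17 for IFT-B, 0.41 for IFT-A, 0.33 for the BBSome and 0.60 for the manchette genes, and those of IFT-A, the BBSome and the manchette genes were 0.039, -0.12 and 0.19 without N1 and 0.83, 0.71 and 1.10 without N2. Of the 31 other genes of the pathways 0 were called, with 1 at an unadjusted p under 0.05.

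The knock-in lines differ in the match of the sites but were made by separate injections, so line and match cannot be told apart. Between them, 12 members were lower in *10xBulge* than in *10xPerf* and 0 were higher (34.3% lower, against 24.1% of all genes, and 0% higher, against 12.9%, with 37% of all genes called in either direction). At an unadjusted p under 0.05 there were 14 members, against 40.2% of all genes. These comparisons share the *10xBulge* libraries with those against WT. In *Hook1* the difference was the largest among the members, 13.6-fold (log2 fold change -3.76 ± 0.56 SE, adjusted p = 9e-04 in limma). *Ift172* was lower by 7.28-fold (-2.86), *Spef2* by 6.38-fold (-2.67), *Bbs5* by 5.44-fold (-2.44) and *Ift81* by 5.05-fold (-2.34), and with *Hook1* these 5 calls held in all 18 alternatives. The other 7 had smaller differences, *Ift74* of -1.70, *Spag16* of -1.39, *Iqcg* of -1.38, *Ift43* of -1.29, *Bbs7* of -1.29, *Ift57* of -1.23 and *Meig1* of -1.23 (adjusted p from 0.0307 to 0.0594). These were named after their values were seen. Among them were *Ift57*, *Bbs7* and *Spag16*, whose X-box stretches are printed above, 3 of the 11 called members with a promoter window. Without N3 the 7 smaller calls all ended (adjusted p from 0.177 to 0.319), and without N4 all of them but *Ift74* did (0.128 to 0.191). Without N5 the *Ift74* and *Iqcg* calls ended (0.149 and 0.102), and without N6 those of *Ift57* and *Ift43* did (0.124 and 0.177). Equal library totals gave more higher and fewer lower calls over all genes, and 10 lower and 1 higher among the members. Of the 31 other genes of the pathways 13 were lower (41.9%) and 0 higher, with 6 lower without N3 and a split of 11 lower and 4 higher with equal library totals. The members' median was -0.53 (-1.05 without N5), against -0.07 over all genes. In the manchette class 5 of 8 were called lower (62.5%, against 24.1% of all genes), with a median of -1.38. In the BBSome class 2 of 10 were called lower (20%), with a median of 0.02.

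The replicate libraries of *10xBulge* and of WT differed from each other in many members, and this went with base composition. In *10xBulge*, 11 members differed more than 2-fold between N5 and N6, 7 of them higher in N5, with *Rimbp3* (4.44-fold) and *Ift140* (4.14-fold) the furthest apart. In WT, 10 members differed more than 2-fold between N1 and N2, 9 of them higher in N2, and in *10xPerf* 4 did. Such counts were not made over all genes, so they do not set the members apart. The GC content of the members' transcripts ranged from 39.9% for *Bbs5* to 61.4% for *Cep131*. Across the 35 members Spearman's rho of GC content with the ratio of the libraries was 0.847 for N5 over N6, 0.529 for N1 over N2 and -0.265 for N3 over N4. Across 16975 protein-coding genes it was 0.467, 0.54 and -0.246. These are descriptions across genes that share the libraries, and genes are not independent replicates. With each library's trend with GC content removed, the 11 members called in *10xBulge* against WT were all called (adjusted p from 0.000406 to 0.0472 in limma), with *Ift172* at -2.77 and *Rimbp3* at -1.93.

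**Figure D5:**
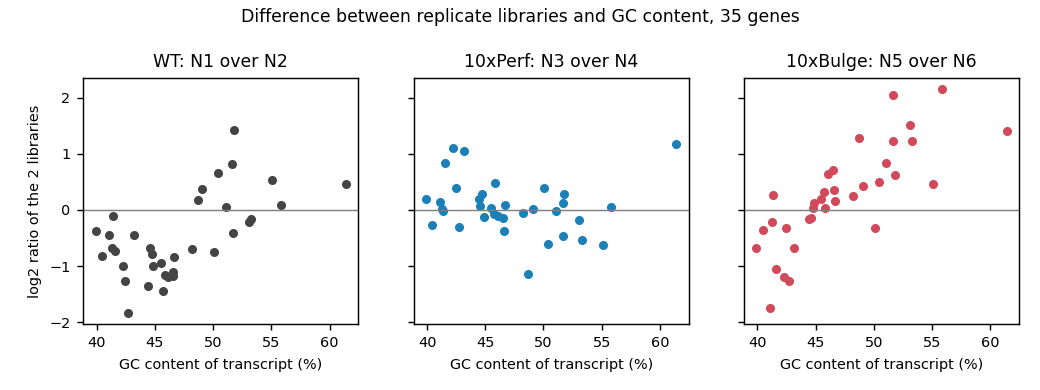
Log2 ratio of the 2 libraries of each genotype against the GC content of the transcript (%), for the 35 genes. In *10xBulge* the points rise from left to right (Spearman's rho 0.847), in WT less so (0.529), and in *10xPerf* they fall slightly (-0.265).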

How the data were processed

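Testis RNA-seq libraries of WT, *10xPerf* and *10xBulge* mice (stranded total RNA, ribosomal RNA depleted, single-end reads) were analysed, 6 in all, and the immunoprecipitation libraries of the study were not used here. The authors mapped the reads to transcripts with salmon, using the GC bias option, on GRCm39 (Ensembl), and deposited normalized read counts from DESeq2, a signal per gene and library. The deposited table also holds the authors' log2 fold changes and adjusted p-values, which were not used. Only 17.7% of the genes were whole multiples of a step in every library (tolerance 0.001), so reads were not recovered and a count test was not run.

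In R 4.3.3, limma 3.58.1 modelled log2(value + 1) by genotype over all libraries, with a mean-variance trend. The added 1 understates the fold change of low genes. P-values measure the spread between these mice only. Tables and figures were made with Python 3.11.15 and matplotlib 3.10.9. The procedure was tested on simulated data. The members, the lists and the rule for named genes were chosen with earlier results of these data known. In each class the genes past the threshold without overlap between genotypes were described (up to 5 lower and 3 higher by fold change), with the 2 of smallest change against WT in *10xBulge*. Of each list of other pathway genes up to 2 called genes were described. Transcript length, GC content and gene coordinates were taken from GENCODE on GRCm38, which is not the build of the deposited values, and promoters from RefSeq on GRCm38.p6.

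The alternatives were scaling to library totals, to upper quartiles or by a trimmed mean of log ratios, keeping every gene that reached 1 in any library, requiring 10 in every library, pseudocounts of 0.1 and 10, a fit without the genotype not compared, a threshold of 0.05, a fold change of 2 or more, no mean-variance trend, removal of the GC trend by loess (span 0.3), and leaving out each library.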

Additional observations from a re-analysis of the deposited data

How the results depend on the processing

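With 2 libraries per genotype, the 95% interval of a member's log2 fold change in *10xBulge* against WT reached 1.08 to either side in the median member (0.871 to 1.5), so changes under about 2-fold were below what these data can resolve. No paired analysis was possible because the libraries of a genotype carry numbers that no other genotype shares. Of the named genes' values under the 18 alternatives, 559 kept their direction and side of the threshold, 78 lost a call, 1 gained a call and 10 changed sign. Scaled to library totals, in *10xBulge* against WT, 6 members and 4 other pathway genes were called higher, and the medians were -0.23 for the members, -0.23 for IFT-B, 0.57 for the BBSome and -0.76 for the manchette (0.41 for IFT-A), while *Ift122* was at 0.20 and *Lrguk* at 0.33. Against *10xPerf*, that scaling gave 1 member and 4 other genes higher and a member median of -0.28. In both comparisons it also gave more higher and fewer lower calls over all genes. The higher calls among members against WT numbered 1 without a filter and 1 with at least 10 in every library. They numbered 0 when the genotype not compared was left out of the fit, at a threshold of 0.05 and without the mean-variance trend. Other pathway genes called higher against WT numbered 3 with upper quartiles and 3 with the GC trend removed, which against *10xPerf* gave 2 members and 2 other genes higher. The cause of these shifts was not tested. Leaving out 1 library at a time, in *10xBulge* against WT, gave 0 to 4 members higher, 4 to 10 lower, 0 to 1 other genes higher and 6 to 10 lower. The medians ranged from -0.90 to -0.12 for the members, from -1.04 to -0.12 for IFT-B, from -0.47 to 0.48 for IFT-A, from -0.18 to 0.73 for the BBSome and from -1.44 to -0.74 for the manchette. Against *10xPerf* they gave 5 to 15 members and 6 to 16 other genes lower, with medians of -1.05 to -0.39 for the members, -1.03 to -0.43 for IFT-B and -0.997 to 0.082 for IFT-A. For *10xPerf* against WT, the medians were 0.053 to 0.72 for the members, 0.086 to 0.32 for IFT-B, 0.039 to 0.83 for IFT-A, -0.12 to 0.71 for the BBSome and 0.19 to 1.10 for the manchette, with 0 calls under every alternative. The uncalled genes that changed sign ranged from -0.038 to 0.61 (*Ift46*), -0.94 to 0.57 (*Ift122*), -0.48 to 0.96 (*Ttc21b*), -0.74 to 1.08 (*Bbs12*), -0.28 to 0.71 (*Bbs10*) and -0.65 to 0.55 (*Lrguk*).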
